A study of Mus musculus with 8 samples.

Results

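The ubiquitin-specific proteases (Usp genes) were followed in single mouse oocytes with and without the histone methyltransferase Setd1b. Members were all genes of the count table whose symbol begins with Usp and a digit, without pseudogenes. This gave 58 of 37224 genes. They comprised 55 protease genes, the antisense RNA genes Usp46os1 and Usp46os2, and Usp6nl, which shares the symbol but encodes a Rab GTPase-activating protein. The samples were 8 libraries, each from 1 mature oocyte at metaphase of the second meiotic division taken after superovulation. There were 4 oocytes from Setd1bGdf9cKO mice and 4 from control mice. Gdf9cKO names a conditional knockout driven by the promoter of Gdf9, a gene of growing oocytes, so Setd1b is removed in the germ cell and not in the rest of the animal. The alleles carried by the controls, the strain and the age are not given in the sources used here, nor is the number of females. The p-values therefore measure the spread between these oocytes, which may come from few animals.

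Library totals were 9488899 to 11313502 counts in knockouts and 11029602 to 13519404 in controls. Levels are given as CPM, counts per 1000000 counts of the library total multiplied by a TMM factor. TMM is edgeR's scaling to the bulk of genes, and its factors were 1.07 to 1.22 in knockouts and 0.800 to 0.947 in controls. A gene was called when edgeR's quasi-likelihood test gave a Benjamini-Hochberg adjusted p under 0.05 over all 11066 genes that passed the filter on low counts. Setd1b itself was at 4.42, 5.05, 2.96 and 3.54 CPM in the 4 knockout libraries and at 10.7, 12.8, 9.22 and 10.9 CPM in the 4 controls. The groups did not overlap, and the log2 fold change was -1.44 ± 0.41 (SE, adjusted p = 0.0221 by edgeR). That call was lost without knockout replicate 3 (adjusted p = 0.0519) or control replicate 2 (0.0540), and with libraries scaled by their totals alone (log2 fold change -1.04, adjusted p = 0.0887). It was also lost with the replicate number as a block in the edgeR fit (adjusted p = 0.0700). All 12 oocyte markers passed the filter, with summed levels of 15170 to 19360 CPM in knockouts and 17120 to 22940 CPM in controls. They were not level one by one: Zp1, Zp2, Zp3 and Nlrp5 were called higher and Oosp1 and Ooep lower. Of 20 cumulus and granulosa markers, 10 had no count anywhere, among them Amh, Foxl2, Lhcgr and Inha. The sum over the list was 68.8 to 128 CPM in knockouts and 111 to 159 CPM in controls. The most read was Cyp19a1, with means of 49.2 CPM in knockouts and 88.6 CPM in controls, and it was called lower. Kitl followed with 21.4 and 28.25 CPM and Nr5a2 with 17.6 and 18.1 CPM, neither called. The 7 matched blood and stroma markers summed to 26.8 to 51.3 CPM in knockouts and 50.8 to 77.7 CPM in controls, with Ptprc, Col3a1 and Lyz2 at 0. Pecam1 was the most read of them, with means of 33.7 CPM in knockouts and 59.9 CPM in controls, and it was called lower. The part of these other cells in the results below was not tested.

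Ubiquitin is a small protein that is linked to other proteins, singly or in chains, by activating, conjugating and ligating enzymes. Ubiquitin-specific proteases are cysteine proteases that remove it again, and so spare proteins from the proteasome, edit signals at membranes and chromatin, or return free ubiquitin to the cell. An oocyte in metaphase of the second division is transcriptionally silent and lives on stored mRNA, while protein breakdown through ubiquitin drives its exit from meiosis after fertilization. Setd1b methylates lysine 4 of histone H3, a mark found at the starts of genes, in particular at starts rich in CG dinucleotides. Because the kit used primes on poly(A) tails, a lower mRNA amount and a shorter tail cannot be told apart in these libraries.

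Of the 58 members, 46 passed the filter and were tested, and 10 of these were called. Usp5, Usp14, Usp4 and Usp8 rose in the knockout, and Usp13, Usp29, Usp22, Usp31, Usp28 and Usp1 fell. The changes thus ran both ways, from a 10.2-fold fall of Usp13 to a 5.09-fold rise of Usp5. Among tested members 21.7% were called, beside 25.8% of all tested genes. Higher calls made up 8.7% of members (13.6% of all genes) and lower calls 13% (12.2% of all genes), shares near those of the background. The knockout and control libraries did not overlap for 17 members, 7 higher and 10 lower in the knockout, which is 37% of members beside 31.3% of all genes. The median log2 fold change was -0.09 over members and 0.10 over all tested genes, and 20 members lay above 0 and 26 below.

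**Figure D1:**
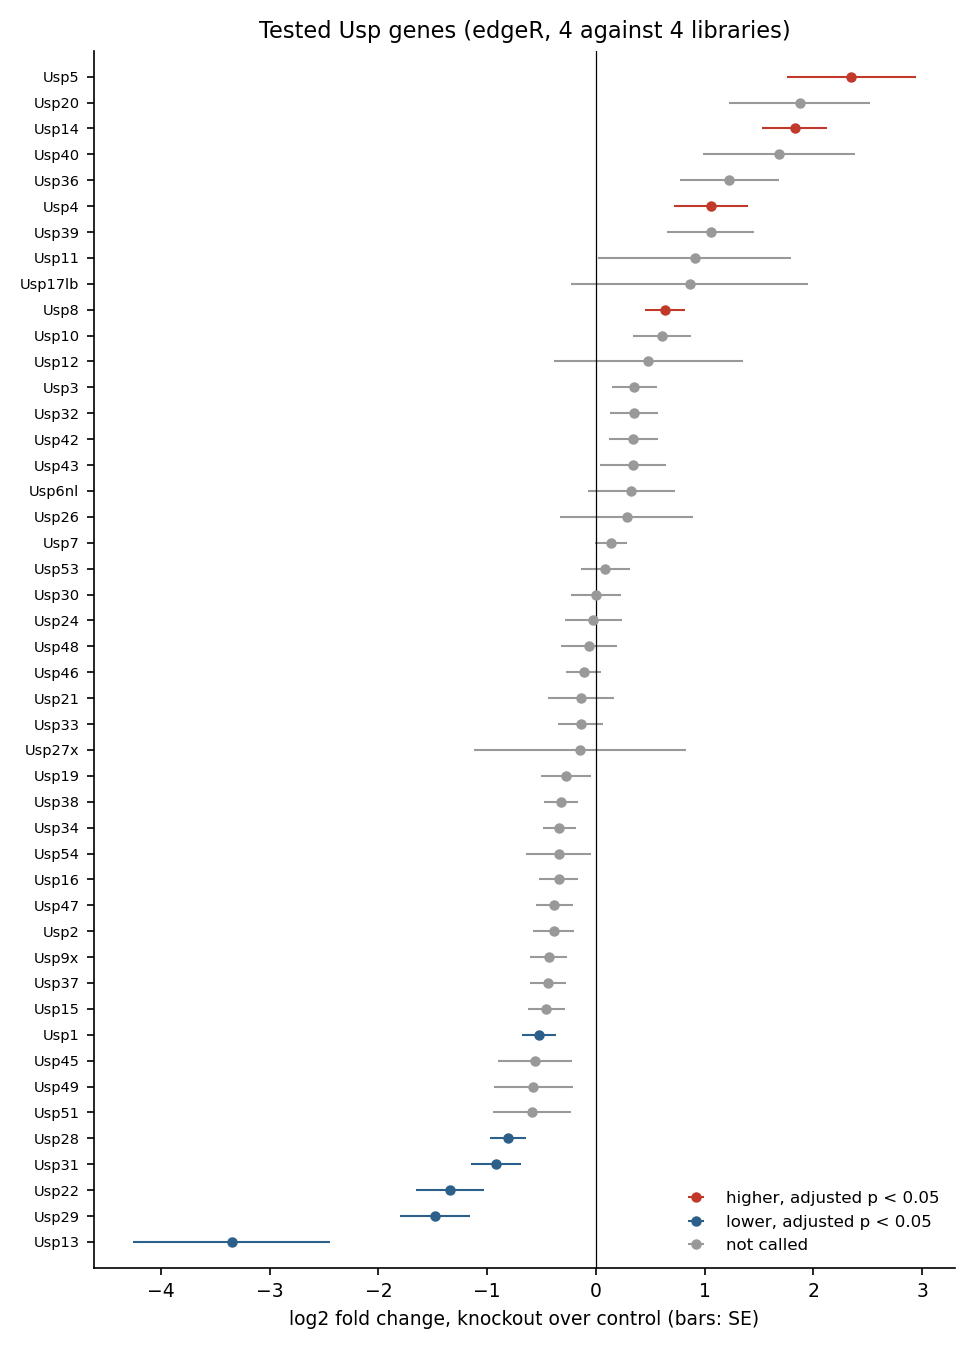
Log2 fold change, knockout over control, of the 46 tested Usp genes (horizontal axis; 1 line per gene, ordered by value), with bars for the standard error of the edgeR fit on 4 against 4 libraries. Called genes are coloured, 4 higher and 6 lower, and the 36 in grey lie between -0.59 and 1.87.

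The promoters of members differ in their content of CG dinucleotides, the sequence feature most tied to the mark that Setd1b writes, and 4 of them are shown for that range. Windows of 300 bases, from 250 before to 50 after the start of the gene, came from RefSeq (GRCm38.p6, the assembly also called mm10). Each is written 5′ to 3′ on the strand of the gene with every CG in capitals. Usp13, the member with the largest fall, has 36 CGs at chr3:32817376-32817675 (+). Usp29, also lower, has 17 CGs at chr7:6730333-6730632 (+). This start lies far upstream of the counted Usp29 gene, which spans 6961160 to 6963769. Whether the counted reads come from transcripts that begin there was not tested. Usp8, higher in the knockout, has 34 CGs at chr2:126707078-126707377 (+). Usp17lc, which had counts in knockouts only, has 1 CG at chr7:103416446-103416745 (+).
Usp13: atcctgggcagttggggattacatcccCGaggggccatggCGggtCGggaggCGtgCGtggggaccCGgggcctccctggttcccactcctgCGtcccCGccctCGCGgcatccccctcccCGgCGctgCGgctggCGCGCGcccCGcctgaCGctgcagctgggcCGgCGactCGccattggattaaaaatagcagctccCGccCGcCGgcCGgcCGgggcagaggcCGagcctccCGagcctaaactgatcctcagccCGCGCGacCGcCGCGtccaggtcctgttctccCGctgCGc
Usp29: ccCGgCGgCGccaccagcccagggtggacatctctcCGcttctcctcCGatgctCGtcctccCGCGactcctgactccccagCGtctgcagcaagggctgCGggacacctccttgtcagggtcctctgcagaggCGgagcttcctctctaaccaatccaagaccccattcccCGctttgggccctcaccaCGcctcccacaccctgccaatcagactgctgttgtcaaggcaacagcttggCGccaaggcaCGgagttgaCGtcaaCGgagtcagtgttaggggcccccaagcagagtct
Usp8: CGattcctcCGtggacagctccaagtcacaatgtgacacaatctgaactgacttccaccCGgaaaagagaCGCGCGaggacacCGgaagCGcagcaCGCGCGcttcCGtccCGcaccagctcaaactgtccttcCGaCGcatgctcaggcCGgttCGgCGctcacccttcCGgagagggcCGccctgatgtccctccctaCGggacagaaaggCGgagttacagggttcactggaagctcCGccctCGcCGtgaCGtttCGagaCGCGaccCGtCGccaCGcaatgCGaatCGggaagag
Usp17lc: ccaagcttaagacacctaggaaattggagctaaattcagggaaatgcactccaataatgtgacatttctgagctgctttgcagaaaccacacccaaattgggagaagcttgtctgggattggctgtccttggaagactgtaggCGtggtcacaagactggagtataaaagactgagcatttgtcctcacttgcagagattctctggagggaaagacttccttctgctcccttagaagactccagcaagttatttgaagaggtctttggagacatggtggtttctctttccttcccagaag

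A window was found for 44 members, of which 36 were tested. The median was 26 CGs in the tested members and 7 over all 32851 windows. Called members with a window lay within the range of the others, with neither the fewest nor the most CGs. That range is so wide that this says little. The called members Usp1, Usp5, Usp14 and Usp22 had no window. The 2 higher members with a window, Usp8 and Usp4, had 34 and 35 CGs. The 4 lower ones had 17 to 36, with a median of 30. The 17 is that of Usp29, whose window is far from the counted gene, and the lowest of the others was 25 in Usp31. The 30 members that were not called had 1 to 63, with a median of 25. The 8 members with a window that failed the filter had a median of 2. On either strand, GGGCGG, a motif that itself contains a CG, was found in 26 of the 36 windows (35.7% of all windows). CCAAT was found in 10 (37.4% of all), TATAAA in 3 (13.6% of all) and TAATTG, a homeodomain motif, in 0 (8% of all). These matches describe the letters in the window only.

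The largest rise and the largest fall, those of Usp5 and Usp13, were in the list of 3 members headed free ubiquitin and the proteasome. That list was written with earlier results of these data known, so the shared heading is not a result. Usp5 (chr6:124815019-124829484) takes apart unanchored ubiquitin chains. It was at 26.5, 20.0, 7.27 and 11.5 CPM in the knockout libraries and at 4.51, 2.79, 4.69 and 0.800 CPM in the controls. Every knockout library lay above every control, with a mean of 16.3 ± 8.61 against 3.20 ± 1.81 CPM (SD, n = 4 each). The log2 fold change of Usp5 was 2.35 ± 0.59 (SE, adjusted p = 0.0132 by edgeR). Without knockout replicate 1, its highest library, it was 2.01 with an adjusted p of 0.0531, so the call rests on that oocyte.

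Usp13 (chr3:32817546-32938071), the nearest relative of Usp5 and a protease tied to autophagy and to protein quality control, moved the other way. It was at 3.22, 0.151, 0.718 and 0.186 CPM in knockouts and at 4.18, 18.8, 10.1 and 11.3 CPM in controls. Knockout replicate 1 was close below control replicate 1, and the other 3 knockouts were each under 1 CPM. The knockout libraries together held 55 counts and the controls 509. The log2 fold change was -3.35 ± 0.91 (SE, adjusted p = 0.0186 by edgeR). It was -2.98 without control replicate 2 (adjusted p = 0.0504, no longer a call) and -4.94 without knockout replicate 1 (adjusted p = 0.00395).

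Usp14, on chromosome 18, is the protease that binds the proteasome and trims ubiquitin from its substrates. It was at 38.8, 88.9, 72.7 and 76.9 CPM in knockouts and at 23.7, 13.4, 18.5 and 22.6 CPM in controls. Knockout replicate 1 was the lowest of its group and still above every control. The rise was 3.55-fold, or 1.83 ± 0.30 on the log2 scale (SE, adjusted p = 0.00135 by edgeR), and Usp14 was called under every one of the 16 alternatives tried.

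**Figure D2:**
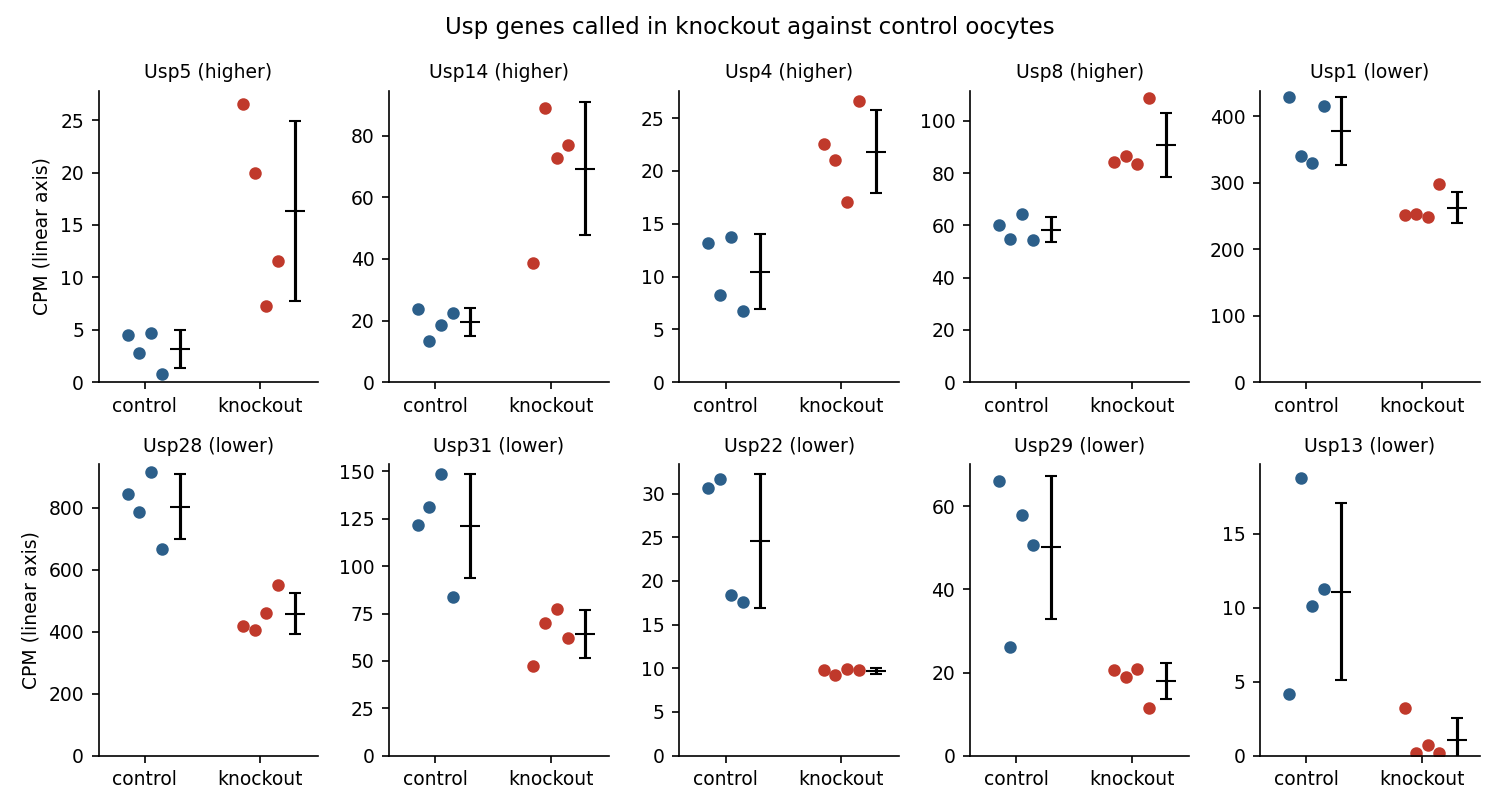
CPM (vertical axes, linear from 0) of the 10 called Usp genes, with 1 point per oocyte library and, beside the points, the mean ± SD of the 4 libraries in each group. In each of the 10 panels the control (blue) and knockout (red) points do not overlap, with Usp31 nearest to doing so as a ratio, at 77.1 against 83.8 CPM.

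Among the 8 members that act on ubiquitin of histones H2A or H2B, 7 were tested and 1 was called. Usp22 (chr11:61151785-61175055), the protease of the SAGA coactivator complex, was at 9.82, 9.19, 9.97 and 9.86 CPM in knockouts and at 30.7, 31.7, 18.4 and 17.6 CPM in controls. The knockout libraries were nearly alike, at 9.71 ± 0.352 CPM (SD, n = 4), while the controls spread over 24.6 ± 7.64 CPM. The fall was 2.53-fold, or -1.34 ± 0.31 on the log2 scale (SE, adjusted p = 0.00924 by edgeR), and held under all 16 alternatives. Usp27x and Usp51 are X-linked relatives of Usp22 that use the same module. Usp51 was at 13.5, 13.7, 10.3 and 28.5 CPM in knockouts and at 28.5, 17.7, 23.0 and 30.0 CPM in controls, with overlapping groups and a log2 fold change of -0.59 (adjusted p = 0.253 by edgeR). Usp27x was at 8.17, 2.94, 1.08 and 0.930 CPM in knockouts and at 4.73, 5.91, 3.79 and 0.0999 CPM in controls, too scattered to order the groups. The other histone proteases tested were not called, at log2 fold changes of 0.36 for Usp3, -0.14 for Usp21, -0.34 for Usp16 and -0.58 for Usp49. Of the exon bases of Usp49, 52.3% are shared with other genes, and the counting used no strand, so its value is uncertain.

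Of the 7 members of DNA damage and genome upkeep, all tested, 2 fell. Usp28 (chr9:48985385-49042517), which spares checkpoint and cell cycle proteins from breakdown, was among the most abundant members. It was at 419, 404, 459.5 and 551 CPM in knockouts and at 845, 786, 915 and 666 CPM in controls. All 4 knockouts were below all 4 controls, and the log2 fold change was -0.81 ± 0.16 (SE, adjusted p = 0.00457 by edgeR). Usp1 (chr4:98923810-98935543), which removes ubiquitin from the Fanconi anaemia protein Fancd2 and from PCNA, was at 252, 253, 248 and 299 CPM in knockouts and at 429, 340.2, 329 and 415 CPM in controls. The groups were apart, but the change was small, at -0.53 ± 0.16 on the log2 scale (SE, adjusted p = 0.0290 by edgeR). The Usp1 call was lost on leaving out any 1 of 5 libraries: knockout replicate 1 (adjusted p = 0.0753), 2 (0.0833) or 3 (0.0648), or control replicate 1 (0.0733) or 4 (0.0563). Both calls also ended when libraries were scaled by their totals alone, at log2 fold changes of -0.43 for Usp28 and -0.12 for Usp1. With a filter of 10 CPM in 4 libraries Usp1 was at -0.38 (adjusted p = 0.0664), and with the replicate number as a block at -0.52 (adjusted p = 0.0846).

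Usp7, which stabilises Mdm2 and p53 among many substrates, was abundant too but showed no call. It was at 522, 616, 573 and 623 CPM in knockouts and at 517, 577, 575 and 453 CPM in controls, 2 groups that overlap (log2 fold change 0.14 ± 0.15, SE, adjusted p = 0.532 by edgeR). Its relative Usp47, a protease of the base excision enzyme DNA polymerase beta, was at 103, 103, 123 and 136 CPM in knockouts and at 141, 161, 169 and 137 CPM in controls. The groups of Usp47 met at their edges without overlapping, yet the change missed the threshold (log2 fold change -0.39, adjusted p = 0.118 by edgeR). Usp11, Usp45 and Usp48 were at log2 fold changes of 0.91, -0.56 and -0.06, all with overlapping groups.

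Of the 7 members of endosomes and the cell surface, all tested, 1 rose. Usp8 (chr2:126707328-126759297), which removes ubiquitin from receptors on the endosome, was at 84.2, 86.6, 83.5 and 109 CPM in knockouts and at 60.1, 54.8, 64.5 and 54.3 CPM in controls. Every knockout was above every control, and the log2 fold change was 0.64 ± 0.18 (SE, adjusted p = 0.0233 by edgeR). The call was lost without knockout replicate 2 (adjusted p = 0.0536), knockout replicate 4, the highest library (0.0735), or control replicate 2 (0.0591). It was also lost with the replicate number as a block (adjusted p = 0.0851). Removing a trend with gene length ended it too, with a log2 fold change of 0.32 (adjusted p = 0.212). Usp20, which acts on receptors and on proteins of the centrosome, had a larger but noisier difference. It was at 12.8, 6.18, 3.41 and 6.51 CPM in knockouts and at 0.770, 1.28, 3.38 and 2.40 CPM in controls, or a difference of 1.87 ± 0.65 on the log2 scale (SE, adjusted p = 0.0516 by edgeR). Knockout replicate 3 and control replicate 3 of Usp20 were almost level. Usp33, its close relative, was at a log2 fold change of -0.14, Usp2 at -0.39, Usp9x at -0.43 and Usp12 at 0.48, none of them called. Usp46, the relative of Usp12 and among the most abundant members, was at 510.3, 431, 576 and 608 CPM in knockouts and at 630.1, 495, 547 and 624 CPM in controls, with overlapping groups (log2 fold change -0.11 ± 0.16, SE).

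Of 5 members tied to RNA, splicing or stress granules, 1 rose. Usp4 (chr9:108347831-108392529), a protease that acts on spliceosome proteins, was at 22.6, 21.0, 17.1 and 26.6 CPM in knockouts and at 13.2, 8.22, 13.8 and 6.70 CPM in controls. The groups did not overlap, and the log2 fold change was 1.06 ± 0.34 (SE, adjusted p = 0.0378 by edgeR). This was the member call closest to the threshold. It was lost without knockout replicate 1 (adjusted p = 0.0851), 2 (0.0802) or 4 (0.102), and without control replicate 2 (0.0865) or 4 (0.0726). It was also lost with no filter on low counts (0.0619), with the replicate number as a block (0.0920), and when a trend with gene length was removed (log2 fold change 0.70, adjusted p = 0.117). Usp15, the paralog of Usp4 that works with the same cofactor Sart3, was far more abundant. It was at 455, 493, 626 and 502 CPM in knockouts and at 788, 699, 567 and 794 CPM in controls. Knockout replicate 3 and control replicate 3 overlapped, and the log2 fold change of -0.46 ± 0.17 (SE) missed the threshold (adjusted p = 0.0664 by edgeR). Usp39, a spliceosome protein without protease activity, and Usp36, a nucleolar protease, were at 1.05 and 1.23 (adjusted p = 0.0741 and 0.0678 by edgeR). Usp10, the partner of the stress granule proteins G3bp1 and G3bp2, was at 99.3, 82.2, 86.7 and 88.0 CPM in knockouts and at 49.1, 89.6, 60.6 and 34.2 CPM in controls, where control replicate 2 alone reached the knockout level (adjusted p = 0.116 by edgeR).

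Members listed as germ line genes or as otherwise restricted in expression were mostly silent or nearly so. Usp29 (chr7:6961160-6963769) was the exception on that list. It is an imprinted gene beside Peg3 that is active from the paternal copy in somatic tissues, so it is not restricted to the germ line. It was at 20.7, 18.8, 20.9 and 11.5 CPM in knockouts and at 66.1, 26.2, 57.8 and 50.6 CPM in controls. Control replicate 2 was well below the other controls and still above all knockouts. The fall was 2.78-fold, or -1.48 ± 0.32 on the log2 scale (SE, adjusted p = 0.00651 by edgeR), and held under all 16 alternatives. Usp26, X-linked and known from testis, was at a log2 fold change of 0.28, and Usp17lb at 0.86, both with overlapping groups.

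The Usp17l genes are a cluster of near-identical copies, so reads may be split or lost between them and single values are uncertain. Usp17lc, which failed the filter, was at 3.00, 1.66, 1.53 and 0 CPM in knockouts and had no count in any control, where a count of 0 allows up to 3 counts in a library. Usp17le, which also failed it, was at 2.62, 1.81, 0.808 and 0.372 CPM in knockouts, with 1 count in all controls together. Neither copy was seen in control oocytes beyond that 1 count. They stood at 79 and 72 counts over the knockout libraries, and knockout replicate 4, which had no Usp17lc count, was the lowest for both. No call is given for either, since they could pass a filter only through the knockout libraries.

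Usp31 (chr7:121642021-121707253), a protease with few described substrates, fell from 122, 131, 149 and 83.8 CPM in controls to 47.4, 70.2, 77.1 and 62.2 CPM in knockouts. Control replicate 4 came close to the highest knockout library without reaching it. The log2 fold change was -0.92 ± 0.23 (SE, adjusted p = 0.0119 by edgeR), and the call was kept on leaving out each library in turn and lost only when libraries were scaled by their totals alone (log2 fold change -0.55). Its paralog Usp43 was at 35.2, 33.5, 28.8 and 43.7 CPM in knockouts and at 16.5, 36.0, 37.5 and 21.3 CPM in controls, which overlap (log2 fold change 0.34).

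The remaining 36 tested members were not called, and 26 of them were within 0.5 of 0 on the log2 scale. Without multiple-test correction, 10 had a p under 0.05 by edgeR: Usp20, Usp15, Usp36, Usp37, Usp39, Usp9x, Usp40, Usp10, Usp47 and Usp34. Beside the members above, the 36 uncalled members held the mitochondrial protease Usp30 at 0.00 and Usp19 of the endoplasmic reticulum at -0.28. The cell cycle proteases Usp37, Usp38 and Usp42 were at -0.44, -0.32 and 0.35, and the inactive relatives Usp53 and Usp54 at 0.09 and -0.34. Usp24, Usp32 and Usp34 were at -0.02, 0.35 and -0.34, and Usp40 at 1.68 with levels of only a few CPM. Usp6nl, the Rab regulator, was at 0.33. In 7 of the uncalled members the groups did not overlap: Usp20, Usp39 and Usp40 were higher in the knockout, and Usp9x, Usp47, Usp34 and Usp38 lower. The 5 tested X-linked members, Usp9x, Usp11, Usp26, Usp27x and Usp51, were all uncalled.

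Of the 12 members not tested, 5 had no count at all: the interferon-induced Usp18, the Y-linked Usp9y, Usp17la, Usp17ld and the antisense RNA gene Usp46os1. Beside Usp17lc and Usp17le, the others had few counts, here as totals over 4 knockout and 4 control libraries. Usp25, the relative of Usp28, had 67 and 37 counts and Usp50 30 and 49. The histone protease Usp44, a spindle checkpoint protease, had 9 and 1, Usp35 had 6 and 0, and Usp46os2 had 4 and 3. A total of 45 members had at least 1 count in each of the 8 libraries.

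Levels per kilobase (kb) of exon were used to order the members among themselves. In controls Usp15 stood first with 221 ± 32.8 CPM per kb (SD, n = 4), then Usp28 with 190.3 ± 25.0, Usp46 with 104 ± 11.7, Usp1 with 101 ± 13.7 and Usp38 with 77.6 ± 11.98. Library values of neighbours in this order overlapped except between Usp28 and Usp46, so these data set Usp15 and Usp28 apart as the leading pair and do not order the next 3. In knockouts Usp15 led with 161 ± 23.0 CPM per kb and no longer overlapped Usp28 at 109 ± 15.6. Usp46 followed with 96.1 ± 14.1, Usp7 with 75.1 ± 5.97 and Usp1 with 70.4 ± 6.41. Usp38, the fifth in controls, was at 267, 307, 286 and 305 CPM in knockouts and at 322, 366, 442 and 324 CPM in controls, close but not overlapping (adjusted p = 0.160 by edgeR). Of the exon bases of Usp38, 24.6% are shared with a gene on the opposite strand. The counting used no strand, so its level and place are uncertain. The same 6 genes filled the first 6 places in both groups, where Usp7 was sixth in controls at 68.3 ± 7.54 CPM per kb. Of the 10 called members, Usp28 and Usp1 were at or above that level in both groups, and the other 8 were well below it.

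**Figure D3:**
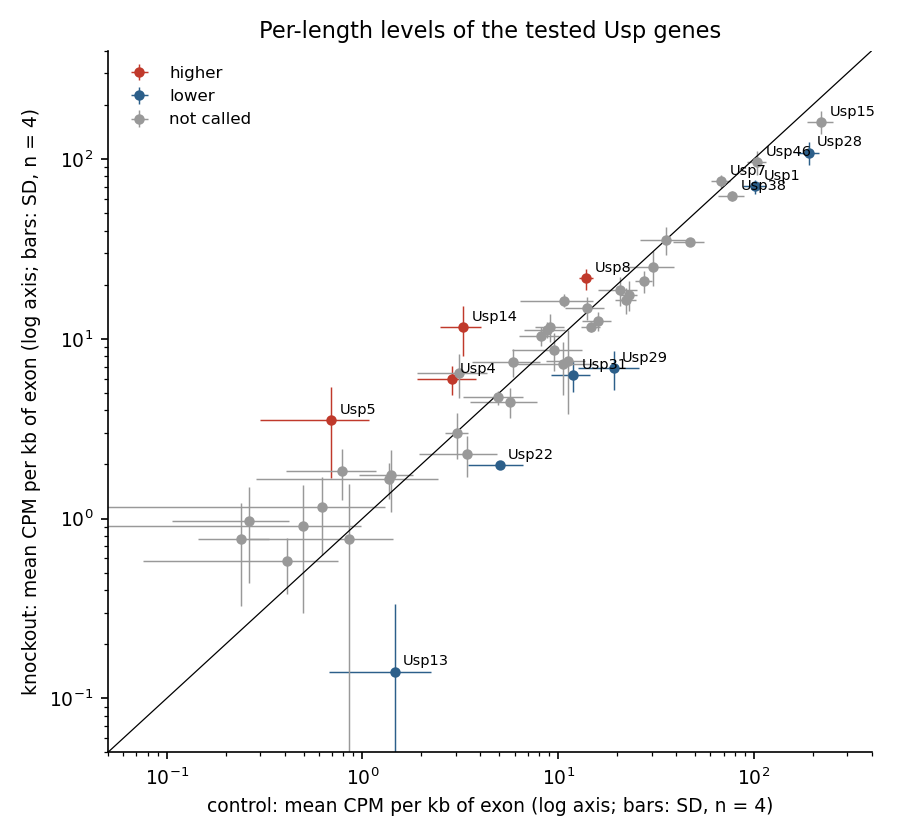
Mean CPM per kb of exon in knockouts (vertical, log axis) against controls (horizontal, log axis) for the 46 tested Usp genes, with bars for the SD of 4 libraries, which run off the axis or stop near it where they reach 0, and a line of equality. The leading genes lie near or below the line, from Usp15 at 221 in controls and 161 in knockouts down to Usp38 at 77.6 and 62.2, and the called genes farthest from it, Usp5, Usp13 and Usp14, have low or middling levels.

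The fold changes of members varied with their level. Over the 46 members, log2 fold change and mean CPM had a Spearman rho of -0.438, and over all 11066 tested genes -0.338. This is a description across genes, which share libraries and are not independent. Split at a mean of 50 CPM, a limit chosen after the values were seen, the 23 members above it held 1 higher and 3 lower calls and a median log2 fold change of -0.32. All 3188 genes above that level had a median of -0.35, with 11.6% higher and 31.8% lower. The 23 members below it held 3 higher and 3 lower calls and a median of 0.33, beside 0.36 for all 7878 such genes, of which 14.4% were higher and 4.21% lower. The members were more abundant than the tested genes as a whole, with a median of 51.2 against 15.6 CPM.

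The summed level of all members was 4819, 4946, 5169 and 5352 CPM in knockouts and 6151, 5949, 6309 and 5947 CPM in controls. Every knockout sum was below every control sum, and the ratio of the means was 0.833. The 5 most abundant members made up 45.1% to 50.4% of the sum in each library. The direction depended on the scaling. With library totals in place of TMM factors the ratio was 1.09, the median log2 fold change went from -0.09 to 0.29 over members and from 0.10 to 0.49 over all genes, and 12 uncalled members moved from below 0 to above it. The calls then split into 13 higher and 3 lower members, and 2377 higher and 510 lower genes, against 1503 and 1347 with TMM. Usp5, Usp14, Usp4 and Usp8 stayed higher and Usp13, Usp22 and Usp29 lower under that scaling.

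**Figure D4:**
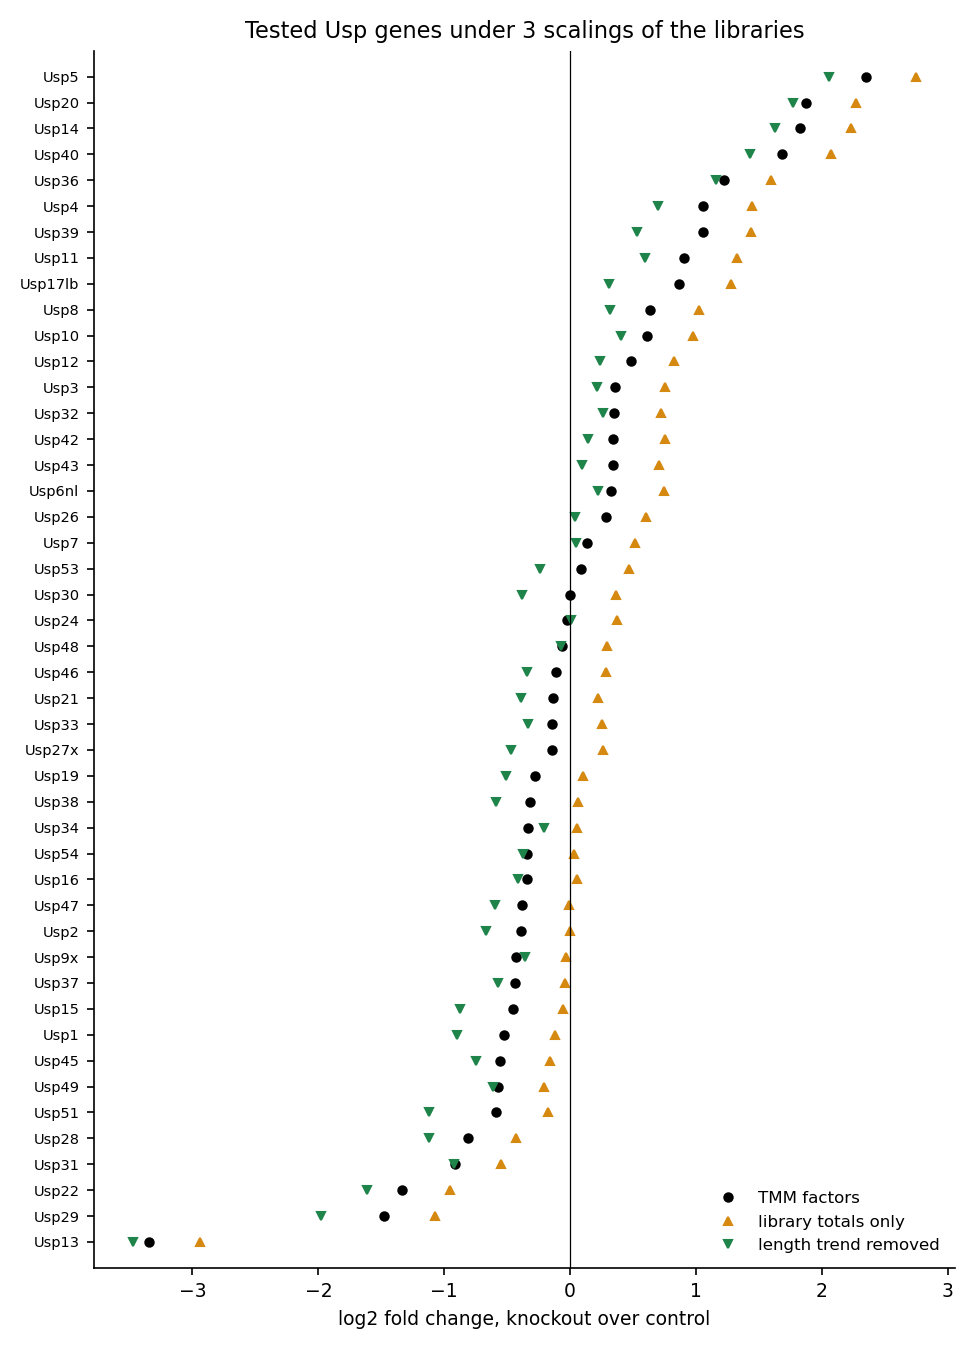
Log2 fold change, knockout over control, of the 46 tested Usp genes (1 line per gene) with TMM factors (circles), library totals only (triangles up) and a trend with gene length removed in each library (triangles down). Scaling by totals shifts the members to the right, with a median of 0.29 against -0.09, and removing the length trend moves most of them to the left, with a median of -0.29.

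Ratios between related members within a library do not change with its scaling, apart from the 1 CPM added to each level here. Of 21 pairs of related members, 16 had both genes tested, and an exact two-sided permutation test over the 70 assignments of libraries was run on each log2 ratio. For 6 of the 16 pairs the knockout and control libraries did not overlap. Every such pair holds a member that did not overlap on its own: Usp5 and Usp13, Usp4, Usp20, Usp29, Usp47 or Usp31. Single genes did not overlap for 37% of members and 31.3% of all genes, so these pairs are not a result apart from the single genes. Each of the 6 pairs had the smallest p the design can give, 0.0286, which after Benjamini-Hochberg adjustment over the 16 pairs was 0.0762. At least 10 pairs would have to share that smallest p for any to pass 0.05, so the lack of a call says little about these ratios. The log2 ratio of Usp5 to Usp13 was 2.71, 4.19, 2.27 and 3.40 in knockouts and 0.09, -2.38, -0.97 and -2.77 in controls, a difference of means of 4.65. Usp13 thus exceeded Usp5 in 3 of 4 control oocytes, and Usp5 exceeded Usp13 in all 4 knockouts. The ratio of Usp4 to Usp15 was -4.52 ± 0.42 in knockouts and -6.00 ± 0.61 in controls (SD, n = 4 each), a difference of 1.48. Usp20 to Usp33 differed by 1.57, and Usp37 to Usp29 by 0.97. Usp37, a protease that stabilises cyclin A, was at 259.7, 255, 246 and 239 CPM in knockouts and at 346, 256, 357 and 397 CPM in controls, where control replicate 2 alone was at the knockout level. Usp7 to Usp47 had the narrowest spread, at 2.32 ± 0.18 against 1.80 ± 0.07, a difference of 0.53. Usp31 to Usp43 was the 1 pair of these 6 with a lower ratio in knockouts, at 0.84 ± 0.46 against 2.13 ± 0.45, a difference of -1.30. The other 10 pairs overlapped, from -1.08 for Usp22 to Usp27x up to 1.46 for Usp11 to Usp15.

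**Figure D5:**
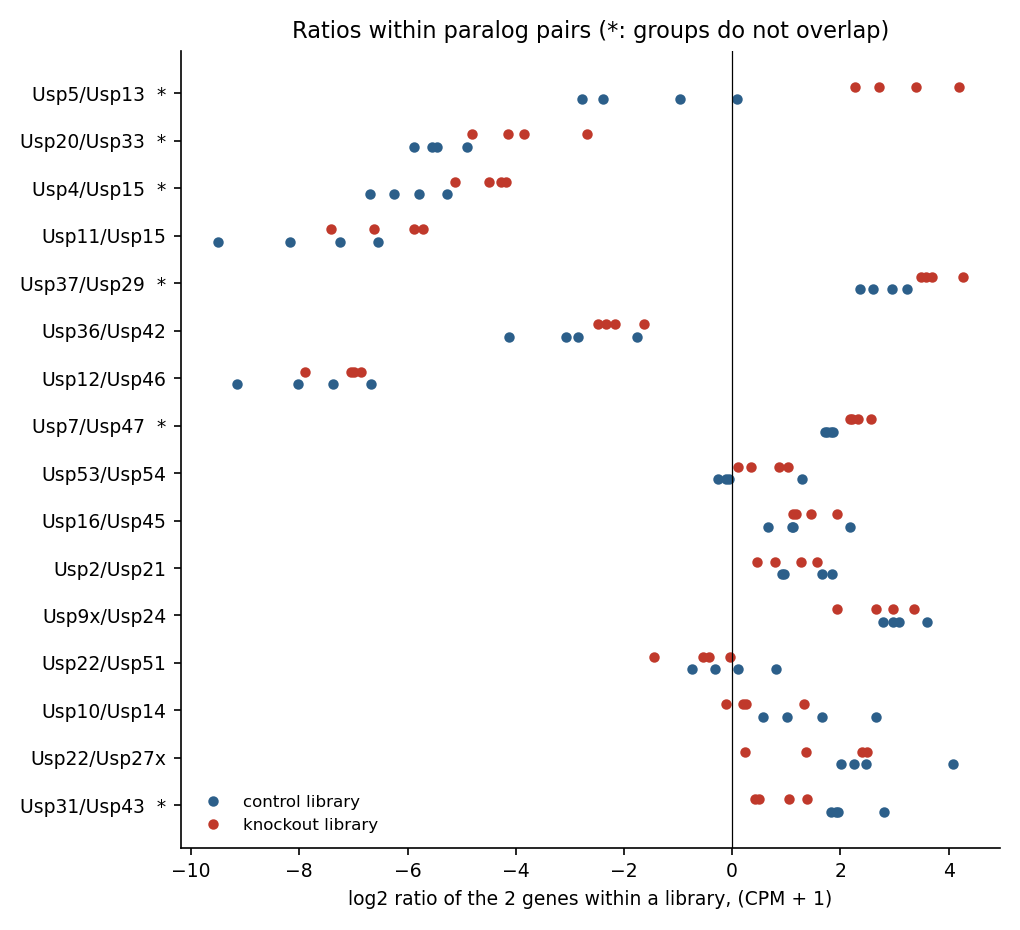
Log2 ratio of the 2 genes of each pair within a library, after adding 1 CPM to each level (horizontal axis), for the 16 pairs with both genes tested, with 1 point per library. An asterisk marks the 6 pairs whose knockout and control libraries do not overlap; the widest gap is that of Usp5 to Usp13, at 2.27 to 4.19 in knockouts and -2.77 to 0.09 in controls.

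Cofactors of Usp enzymes, and ligases they act on or with, were listed as partners. Of 26 on the list, 23 were tested, 2 rose and 3 fell, with a median log2 fold change of 0.01. The share called, 21.7%, was no higher than the 25.8% of all tested genes. Cetn2, a centrin of the centriole that binds Usp44, rose from 15.4 ± 7.31 to 160 ± 32.3 CPM (SD, n = 4 each; log2 fold change 3.39 ± 0.32, SE, adjusted p = 5.28e-05 by edgeR), although Usp44 itself was almost unread. Rnf41, a ligase stabilised by Usp8, rose with a log2 fold change of 2.14 (adjusted p = 0.0315 by edgeR). That call was lost on leaving out any 1 of 6 libraries (adjusted p from 0.0556 without knockout replicate 2 to 0.107 without knockout replicate 3, and also without knockout replicate 1 or control replicates 1, 3 or 4). It was lost too with the replicate number as a block (adjusted p = 0.061). Eny2, a subunit of the SAGA module of Usp22, also fell, from 552 ± 116 to 296 ± 45.3 CPM (log2 fold change -0.90 ± 0.19, SE, adjusted p = 0.00574 by edgeR). The ligases Trip12, stabilised by Usp7, and Herc2, a partner of Usp20 and Usp33, fell with log2 fold changes of -0.95 and -0.70 (adjusted p = 0.00178 and 0.00928 by edgeR). The Herc2 call was lost when libraries were scaled by their totals alone (-0.31, adjusted p = 0.196).

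The other partners were not called. The UAF1 group of Usp1, Usp12 and Usp46 had Wdr48 at a log2 fold change of 0.14, Wdr20 at -0.41 and Dmwd at 0.97. The SAGA module members Atxn7, Atxn7l1, Atxn7l2 and Atxn7l3b were at -0.37, 0.72, 1.36 and -1.15, and Atxn7l3 had no count. For Usp10, G3bp1 was at 0.01 and G3bp2 at -0.41, the latter with groups that did not overlap. For Usp8, Stam, Stam2 and Hgs were at -2.08, -0.08 and 1.49. Neurl4 was at 2.40, Gmps at -0.35, Dhx40 at 0.31 and Sart3 at -0.20. Of the proteasome subunits Adrm1 and Psmd2, at 1.36 and 0.41, neither was called, while Usp14 rose.

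Genes around the family were counted for comparison, on lists chosen by function. Over all tested genes, 25.8% were called. Of 35 tested deubiquitinases and their relatives from other families, 6 rose and 6 fell (34.3% called), with a median log2 fold change of 0.21. Those with the smallest adjusted p were Cops5 at 1.99, Uchl1 at 0.93, Zranb1 at -0.89 and Otub2 at 1.86, and Zranb1 was not called with library totals (-0.50, adjusted p = 0.110). Among 13 tested genes for ubiquitin, related modifiers and their activation, 4 rose and 1 fell (38.5% called). The ubiquitin gene Ubb rose from 305 ± 74.9 to 659 ± 126 CPM (SD, n = 4 each), with a log2 fold change of 1.11. The rise of Ubb, and that of Uchl1, was not called once the trend with gene length was removed (0.56 and 0.35). Nedd8 and Sumo3 rose (1.88 and 1.07), and Uba3, which activates Nedd8, fell (-0.95). Of 9 proteases of SUMO or NEDD8, Senp2 rose (1.70) and none fell (11.1% called). Of 25 tested ligases and conjugating enzymes that share substrates with members, 4 rose and 4 fell (32.0% called). They included Ube2t, which works against Usp1 in the Fanconi anaemia pathway, at 2.65, the Rad6 homologues Ube2a and Ube2b at 2.15 and 1.38, and Nedd4l at -1.30.

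The authors' deposited table of changed genes lists 2709 genes and includes 10 Usp genes. They are the same 10 that were called here, with the same direction in 10 of 10. The limits differ, so the match is between unlike lists. Adjusted p in the deposited table, with DESeq2 the tool in the submitters' notes, reaches 0.009996, against 0.05 by edgeR here. With DESeq2 at 0.05 on these counts, 7 members were higher and 9 lower. In the authors' deposited table the log2 fold changes of its 10 Usp genes before shrinkage ran from -3.42 for Usp13 to 2.31 for Usp5. Both analyses used the same 8 libraries.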

How the data were processed

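Single-oocyte RNA was amplified with the SMARTer Ultra Low kit and read as 75-base single reads without strand or molecular identifiers, per the labels' protocols. Build mm10 and the tools GSNAP, featureCounts (1.4.4) and DESeq2 (1.3.79) are named in the submitters' processing notes. The deposited counts are whole reads per gene, made per the file headers with Ensembl release 69 annotation and a minimum mapping quality of 1. The authors' deposited comparison table gives log2 fold changes, p-values and adjusted p-values, which were only set beside the results. Its 16 per-library columns were not used.

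Symbols were found for 35449 of 37224 genes. The test of counts was edgeR's (version 4.0.16, under R 4.3.3; filterByExpr by group, TMM, quasi-likelihood test, genotype as the only term). The alternatives were DESeq2 1.42.0, limma 3.58.1 (voom with quality weights), other scalings and filters, a replicate block, removal of a loess trend with gene length (span 0.5) and leaving out each library. In simulated counts of 11066 genes, 200 were changed, a smaller share than was called in the oocytes. There, 70 of 96 tested 4-fold and 13 of 92 tested 2-fold changes were recovered, with 4 unchanged genes called.

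Every tested member is named. All library values are given where a member was called, among the 5 highest per length or in a pair with a called member. Each list of genes around the family, apart from partners and markers, gives up to 4 called genes. Of the partner list every tested gene is named, and of the marker lists every called gene. The members, lists and pairs were chosen with earlier results of these data known. Promoter windows of chromosome 18 were not used here. Some values of the context lists are not reported here.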

Additional observations from a re-analysis of the deposited data

Results flagged for a closer look

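For both genes below, 1 of 4 knockout libraries lay farther from the others than Dixon's critical value for a group of 4 allows. Usp8 was at 109 CPM in knockout replicate 4, against 83.5 to 86.6 CPM in the other 3 knockouts. Usp1 was at 299 CPM in the same replicate, against 248 to 253 CPM in the others. This library raised the Usp8 difference and reduced the Usp1 difference, and the call for Usp8 was lost without it. By chance about 1 in 20 groups of 4 would pass this limit. Each of the 46 tested members has a knockout and a control group, so flags such as these can arise by chance.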

How the results depend on the processing

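Of the 10 called members, Usp14, Usp22 and Usp29 were called under every alternative and 7 lost the call in at least 1. No call changed direction. Of the 36 uncalled members 20 were never called and 16 were called at least once. The 4 higher members became 13 with library totals, 7 with DESeq2, 2 with the replicate block and 2 to 7 on leaving out 1 library. The 2 came without knockout replicate 1 or 2, and the 7 without control replicate 3. Those 7 include Usp17lc, which had no count in any control and for which no call is given above. Usp17lc was also counted as higher without knockout replicate 4 and without each other control. Over all genes, higher calls went from 1503 to 2377 with library totals and to 1809 with DESeq2. The 6 lower members became 3 with library totals, 12 with the length trend removed and 5 to 7 on leaving out 1 library. Lower calls over all genes went from 1347 to 510 with library totals and to 2332 with the length trend removed. With that trend removed, the median log2 fold change was -0.29 over members and -0.22 over all tested genes. All called genes numbered 2850, and 1849 to 2841 on leaving out 1 library, the fewest without knockout replicate 2. The ratio of summed CPM was 0.833, and 1.09 with library totals. Same-numbered libraries did not deviate together (correlations -0.159 to -0.031), and no library matched its own number best, so the numbers do not pair the oocytes. With the number as a replicate block, 2 members were higher and 5 lower, beside 1090 and 861 of all tested genes. With 4 libraries a group, 2-fold changes were mostly missed on simulated data, in which 200 of 11066 genes were changed. In the oocytes 25.8% of tested genes were called, a larger share. The simulated recovery therefore does not measure how many changes were missed here. Levels near 1 CPM rest on few counts. The cause of these shifts was not tested.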
